A study of Mus musculus with 6 samples.

Results

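Cluster 3 of the deposited annotation of intestinal organoid nuclei held 2339 of the 38154 nuclei, and its nuclei were taken by that cluster number in all 6 samples. It was the fourth largest of 15 clusters. The organoids were grown from the jejunum of C57BL/6 mice aged 8 to 12 weeks, and their nuclei were profiled by droplet single-nucleus RNA-seq that reads the 3′ end of transcripts. The 3 QCM samples were organoids cultured in medium conditioned by quiescent, serum-deprived mouse embryonic fibroblasts, and the 3 SCM samples were cultured in medium conditioned by senescent fibroblasts of the same kind, for which the study used X-rays or doxorubicin without naming which was used for these libraries. The study asked how factors secreted by senescent cells alter intestinal stem cell differentiation, and here the question was which genes set cluster 3 apart and whether its nuclei differed between media. The labels do not say whether samples of a medium came from separate mice or cultures, so p-values measure only the spread between these samples.

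Cluster 3 contributed 251, 421 and 587 nuclei in QCM samples 1 to 3 and 21, 304 and 755 nuclei in SCM samples 1 to 3. These nuclei carried 231871 to 2258172 UMIs per sample, where a UMI is a molecular barcode that marks 1 captured transcript. SCM 1 was the thinnest sample, and a single nucleus of 69355 UMIs gave 29.9% of its cluster 3 UMIs. QCM 1 was the deepest, with a median of 7981 UMIs per cluster 3 nucleus against 1774 to 6289 in the other samples. Cell barcodes found in more than 1 library occurred in 29 cluster 3 nuclei (1.24%) and in 631 of the other nuclei (1.76%).

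Replicative histone genes encode the core histones H2A, H2B, H3 and H4 and the linker histone H1, which package newly made DNA. They lie in gene clusters, are transcribed mainly during S phase, and most of their mRNAs end in a stem-loop bound by Slbp instead of a poly(A) tail. In the intestinal crypt, stem cells and transit-amplifying cells divide continually and so make these mRNAs.

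The summed level of the histone markers was higher in cluster 3 than in the other nuclei in every sample. The 4 genes given as its markers, Hist1h2ac, Hist1h2bh, Hist1h2bj and Hist1h2bm, encode 1 H2A and 3 H2B proteins. Their summed level, in counts per 1000000 UMIs (CPM) over all nuclei of a sample and group, was 68.2, 187 and 223 CPM in QCM 1 to 3 and 173, 242 and 262 CPM in SCM 1 to 3. Outside cluster 3 it was between 16.9 and 29.0 CPM, so that no cluster 3 value overlapped them, and cluster 3 ranked first among the clusters with at least 10 nuclei in 6 of 6 samples. The clusters were built from the same counts, so levels in cluster 3 against the other nuclei are a description and carry no test.

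On GRCm38 (GENCODE M21) all 4 lie on chromosome 13: Hist1h2ac at chr13:23681467-23683948 and Hist1h2bh at chr13:23541714-23543392 on the minus strand, Hist1h2bj at chr13:22043214-22043676 and Hist1h2bm at chr13:21722044-21722567 on the plus strand. Hist1h2ac overlaps the gene Gm24991 on its own strand, so reads of the pair could not be separated with certainty.

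Hist1h2ac had the highest ratio of cluster 3 to the other nuclei. Its level in cluster 3 was 9.74, 48.1 and 50.3 CPM in QCM 1 to 3 and 34.5, 45.8 and 47.9 CPM in SCM 1 to 3, against 1.64 to 3.48 CPM elsewhere. The log2 ratio, with 1 CPM added to both levels, was 3.39 ± 0.79 (SD, n = 6). QCM 1 stood lowest in cluster 3 but remained above the other nuclei of all samples. The H2B gene Hist1h2bj was the most abundant of the 4 at 24.8, 69.9 and 77.5 CPM in QCM and 81.9, 88.7 and 106 CPM in SCM, with 6.65 to 13.3 CPM in other nuclei and a log2 ratio of 2.66 ± 0.49 (SD, n = 6). Hist1h2bh, also H2B, had 8.41, 26.2 and 35.1 CPM in QCM and 21.6, 34.1 and 42.0 CPM in SCM against at most 3.11 CPM elsewhere. Hist1h2bm had 25.2, 42.8 and 59.9 CPM in QCM and 34.5, 73.1 and 66.3 CPM in SCM against at most 11.1 CPM elsewhere. For each of the 4 genes the lowest cluster 3 value came from QCM 1, but SCM 1 rested on few UMIs. Without its largest nucleus SCM 1 had 12.3 CPM of Hist1h2bm, below QCM 1, and 18.5 CPM of Hist1h2ac. These were low counts per nucleus: a Hist1h2ac UMI was found in 258 of the 2339 nuclei of cluster 3 and in 0.818% of the others, and a Hist1h2bj UMI in 20.5% against 3.16%.

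**Figure D1:**
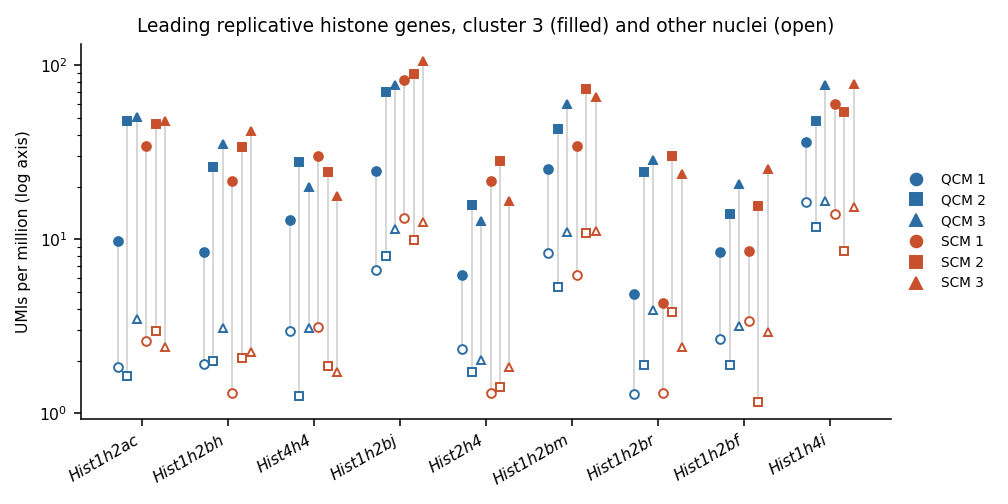
CPM (log axis) of the 9 replicative histone genes with the highest mean ratio, in cluster 3 (filled) and in the other nuclei (open) of each sample, joined by a grey line, with no error bars because each point is a sum over nuclei. Every filled point lies above the open point of its own sample, and for Hist1h2ac the QCM 1 pair is the closest, at 9.74 against 1.86 CPM.

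Core histone H4 genes ranged from a log2 ratio of 0.42 for Hist1h4d, at 115 CPM in cluster 3 and 88.3 CPM elsewhere, to that of Hist4h4. Of the 12 at 5 CPM, 4 were 2-fold higher in all samples, where 0.138% of all genes were. Hist4h4 had 12.8 to 28.0 CPM in cluster 3 of QCM and 17.8 to 30.2 CPM in that of SCM, against 1.25 to 3.12 CPM in other nuclei, a log2 ratio of 2.78 ± 0.65 (SD, n = 6). Hist2h4 followed at 2.57 ± 0.88, and Hist1h4i was at 2.00 ± 0.49. Linker histone genes differed among themselves: Hist1h1a had a log2 ratio of 2.00 ± 0.82, whereas the abundant Hist1h1e, at 121 to 343 CPM in cluster 3 and 64.3 to 213 CPM elsewhere, had 0.61 ± 0.27. Among H3 genes Hist1h3f had 1.29 ± 0.36 and Hist1h3c had 0.38 ± 0.26, the latter not higher in every sample.

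The whole histone list held 64 replicative genes, of which 63 had a UMI in cluster 3. The mean log2 ratio was above 0 for 62 of them, and 46 were higher in cluster 3 in all 6 samples. A mean of at least 5 CPM in cluster 3 or in the other nuclei was reached by 53 genes, a filter that a gene can pass through cluster 3 alone. Of these 53, 12 were at least 2-fold higher in all samples, where 17 of all 12356 genes at that level were (0.138%), and 44 were higher by any amount in all samples, where 2.36% of all genes were. The median log2 ratio was 1.19 over the 53 histone genes and -0.07 over all 12356 genes. By family the medians were 1.83 for H2B, 1.58 for H4, 1.00 for H3, 0.95 for H2A and 0.80 for H1.

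The summed histone level showed how this varied by sample. It was 1604, 1788 and 1771 CPM in cluster 3 of QCM 1 to 3 and 1936, 2116 and 2046 CPM in SCM 1 to 3, and cluster 3 was the highest cluster in 6 of 6 samples. The other nuclei ranged more widely, with 1202, 818 and 880 CPM in QCM and 626, 759 and 969 CPM in SCM. The ratio was therefore lowest in QCM 1 at 1.33 and highest in SCM 1 at 3.10, with a mean of 2.25 ± 0.62 (SD, n = 6). Without the largest nucleus of SCM 1 its sum was 1483 CPM and its ratio 2.37, the highest ratio was then 2.79 in SCM 2, and the mean was 2.13 ± 0.48. In QCM 1 the margin over cluster 1, the next highest, was only 1604 against 1574 CPM. Ribosomal protein mRNAs, which are abundant in the cytoplasm, were also highest in QCM 1, at 155803 CPM in its cluster 3 against 32337 to 95989 CPM in the other samples, and the part of this difference in the histone ratio was not tested. Cluster 1 made up 1639 of the 3540 other nuclei in QCM 1 and 1086 of 7509 in QCM 2. The part of this mix in the histone ratio was not tested either.

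**Figure D2:**
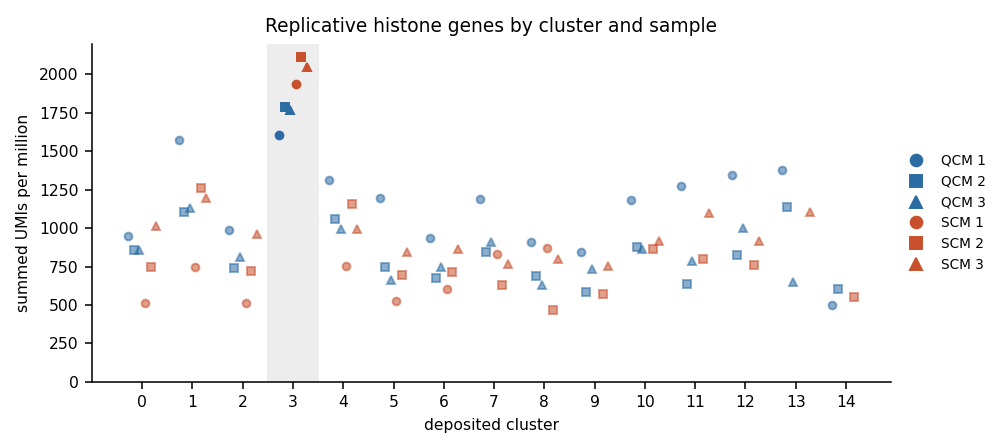
Summed CPM of the 64 replicative histone genes in each deposited cluster, with 1 point per sample that had at least 10 nuclei of the cluster. Cluster 3, shaded, holds the highest point of each sample, from 1604 in QCM 1 to 2116 in SCM 2, and the QCM 1 point of cluster 1 reaches 1574.

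Depth differences between nuclei were removed by thinning each nucleus to 1000 UMIs, which left out 168 shallower nuclei of cluster 3 and 3011 of the others. At that depth 81.1% of cluster 3 nuclei held a replicative histone UMI (exact 95% binomial interval 79.4 to 82.7%, counting error only) against 59.3% of the other nuclei. Among the other clusters the pooled share ran from 35.9% in cluster 14 to 68.9% in cluster 1. Without thinning the shares were 96.6% in cluster 3 and 83.4% in the others. By sample the thinned share in cluster 3 was 76.9%, 77.4% and 80.8% in QCM and 66.7%, 78.6% and 86.1% in SCM. It exceeded the share in the other nuclei by the least in QCM 1, where that was 72.6% and where clusters 1 and 13 reached 80.0% and 80.8%. At 500 UMIs the pooled shares were 59.4% and 38.5%, but in QCM 1 they were 49.8% and 48.2%, and in SCM 1 the direction turned, with 28.6% of 21 cluster 3 nuclei (exact 95% interval 11.3 to 52.2%) against 30.9% of the others. A UMI of any of the 4 marker genes was present after thinning in 20.8% of cluster 3 nuclei and 2.45% of the others. By sample it was 5.18%, 20.3% and 21.4% in cluster 3 of QCM and 11.1%, 21.8% and 25.8% in that of SCM, against 1.59% to 2.83% of the others. At 500 UMIs SCM 1 had 0 of 21 nuclei with such a UMI against 1.47% of its others. Most cluster 3 nuclei thus had no UMI of these 4 genes at this depth, which does not show that they lacked the transcripts.

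Histone 3′ ends carry the stem-loop that replaces the poly(A) tail, and the sites of the leading genes are shown because the libraries were primed on poly(A). The sequences are from GENCODE M21 transcripts on GRCm38, written as DNA 5′ to 3′, with the stem-loop in capitals and 5 flanking bases on each side in lower case.
Hist1h2ac: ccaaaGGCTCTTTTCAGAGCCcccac
Hist1h2bh: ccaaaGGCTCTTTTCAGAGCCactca
Hist1h2bj: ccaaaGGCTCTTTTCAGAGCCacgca
Hist1h2bm: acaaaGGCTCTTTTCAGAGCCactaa
Hist4h4: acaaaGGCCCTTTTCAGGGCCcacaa
Hist2h4: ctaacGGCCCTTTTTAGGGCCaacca
The H2A and H2B genes shown held the strict form, in which the stem GGCTCT and AGAGCC encloses the loop TTTN. The H4 genes shown matched only a looser form, GGNNCT and AGNNCC around the same loop, which includes the first. The search used the transcript strand. The strict form was present in 31 of the 64 histone genes (48.4%) and in 33 of 31244 genes in all (0.106%), and the looser one in 42 histone genes (65.6%) and 78 genes in all (0.250%). Where a model ended before the stem-loop, no match could be found. The median log2 ratio of cluster 3 to the other nuclei was 1.05 over 27 measured histone genes with the strict form, 1.65 over 10 with only the looser one and 1.09 over 16 with neither. The annotated transcript ran on past the stem-loop by 2010 bases in Hist1h2ac, 1214 in Hist1h2bh and 2445 in Hist4h4, but by 23 in Hist1h2bj and 46 in Hist1h2bm. Over the histone genes with a match that also passed 5 CPM, the median log2 ratio was 1.13 for the 18 whose model ran on by at least 100 bases and 1.23 for the 19 with less.

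Counts of single histone genes are uncertain where near-identical copies share reads. The share of 31-base words of the transcript found in another gene was 16.8% for Hist1h2ac, 27.5% for Hist1h2bh, 67.2% for Hist1h2bj, 58.5% for Hist1h2bm and 89.4% for Hist1h2br. Within the last 100 bases of the transcript it was 0% for Hist1h2ac, Hist1h2bh and Hist1h2br, 8.57% for Hist1h2bj and 37.1% for Hist1h2bm. The files do not show where along a transcript the reads lay.

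Promoter windows of the 4 marker genes are shown because these genes were high together. They cover 250 bases before to 50 after the annotated start, from the RefSeq table on GRCm38.p6, written 5′ to 3′ on the strand of the gene, with CCAAT, ATTTGCAT and TATAAA on either strand in capitals. All lie in the histone gene cluster of chromosome 13.
Hist1h2ac promoter, chr13:23683910-23684209, minus strand: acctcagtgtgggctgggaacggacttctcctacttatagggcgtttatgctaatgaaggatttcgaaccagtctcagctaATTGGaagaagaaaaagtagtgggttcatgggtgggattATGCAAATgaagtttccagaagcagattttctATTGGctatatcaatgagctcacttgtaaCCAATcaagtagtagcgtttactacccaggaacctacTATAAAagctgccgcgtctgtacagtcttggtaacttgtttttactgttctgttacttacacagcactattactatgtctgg
Hist1h2bh promoter, chr13:23543395-23543694, minus strand: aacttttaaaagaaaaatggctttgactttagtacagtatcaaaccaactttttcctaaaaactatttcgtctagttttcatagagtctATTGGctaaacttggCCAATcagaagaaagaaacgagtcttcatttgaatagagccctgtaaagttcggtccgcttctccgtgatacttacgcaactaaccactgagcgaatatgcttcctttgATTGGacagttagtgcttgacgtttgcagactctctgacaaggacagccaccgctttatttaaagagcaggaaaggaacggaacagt
Hist1h2bj promoter, chr13:22042948-22043247, plus strand: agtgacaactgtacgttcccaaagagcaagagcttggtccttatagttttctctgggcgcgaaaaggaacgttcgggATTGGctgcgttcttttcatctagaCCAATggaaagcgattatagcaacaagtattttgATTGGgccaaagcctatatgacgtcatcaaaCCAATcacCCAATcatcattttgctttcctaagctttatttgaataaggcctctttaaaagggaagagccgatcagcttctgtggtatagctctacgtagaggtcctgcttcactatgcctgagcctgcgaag
Hist1h2bm promoter, chr13:21721794-21722093, plus strand: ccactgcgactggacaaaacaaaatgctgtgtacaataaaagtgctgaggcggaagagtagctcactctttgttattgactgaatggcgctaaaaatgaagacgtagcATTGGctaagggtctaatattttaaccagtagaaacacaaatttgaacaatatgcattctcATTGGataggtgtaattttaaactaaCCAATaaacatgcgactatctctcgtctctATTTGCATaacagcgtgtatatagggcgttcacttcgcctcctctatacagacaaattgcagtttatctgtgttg
CCAAT occurred in 48 of 57 histone promoters (84.2%), which belonged to 56 of the 64 genes, and in 37.4% of all 32851 promoters. All 15 H2A, 15 H2B, 9 H3 and 6 H1 windows held it, against 3 of 12 H4 windows. Some windows overlap, for example those of Hist1h2ak and Hist1h2bn, so that a match can count for both genes. The octamer ATTTGCAT was found in 21.1% of histone windows and 1.74% of all, and TATAAA in 57.9% and 13.6%. Such matches describe letters and are no measure of factor binding.

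Beyond histones, 5 genes were at least 2-fold higher in cluster 3 in all samples. Rn7sk, the 7SK RNA that holds an elongation factor inactive, had 1294, 114 and 3126 CPM in QCM and 14392, 539 and 595 CPM in SCM, against 439, 29.0, 925, 2348, 47.2 and 130 CPM in the remaining nuclei of those samples, in that order. The level thus ran from 114 to 14392 CPM while the log2 ratio stayed between 1.56 and 3.49. The vault RNA Vaultrc5 had a log2 ratio of 2.29 ± 0.63 and the noncoding RNA Gm26917 one of 1.83 ± 0.53 (SD, n = 6). Both Rn7sk and Gm26917 were unevenly spread over nuclei. In QCM 1 the top 10% of cluster 3 nuclei held 88.8% of their Rn7sk UMIs, against 77.3% for the other nuclei. In QCM 2 the top 10% held 81.1% of the Gm26917 UMIs, against 58.1% for the other nuclei. In each sample but QCM 1, Rn7sk was more concentrated in the other nuclei, at 79.6% to 100% against 69.5% to 91.5% in cluster 3. The median nucleus of QCM 2 and of SCM 3 had 2 Gm26917 UMIs both in cluster 3 and outside it. Gm23935, annotated as a miRNA gene, had a log2 ratio of 2.00 ± 0.86 without being 2-fold higher in each sample.

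A list of 15 RNAs that carry no poly(A) tail, to which Rn7sk belongs, had 13 genes in the matrix and 7 at 5 CPM, and all 7 were higher in cluster 3 in 6 of 6 samples, where 2.36% of all genes were. Their summed level was 2.63 to 6.63 times that of the other nuclei. Cluster 3 ranked first in 5 samples and came after cluster 8 in SCM 1, at 14819 against 28929 CPM. Rn7sk made up most of that sum, so the list is close to 1 gene.

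The other 2-fold higher genes encode proteins. Atf3, a stress-induced transcription factor, had 28.3, 38.5 and 34.3 CPM in QCM and 25.9, 52.7 and 28.5 CPM in SCM against 6.57 to 10.8 CPM elsewhere, a log2 ratio of 1.93 ± 0.39 (SD, n = 6). Plk2, a polo-like kinase gene and a p53 target, had 20.8 to 71.2 CPM against 7.02 to 25.1 CPM, a log2 ratio of 1.72 ± 0.50. By mean over samples, Atf3 was highest in cluster 3 at 34.7 CPM with cluster 7 next at 29.3 CPM, and Plk2 was higher in cluster 7 at 53.4 CPM than in cluster 3 at 43.4 CPM. The 22 genes of DNA damage and the p53 response had a median log2 ratio of 0.16, with 2 of 22 higher in all samples where 2.36% of all genes were.

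The 36 measured genes of replication licensing and the fork had a median log2 ratio of 0.13, 5 of the 36 were higher in all samples where 2.36% of all genes were, and their summed level was 1.11 ± 0.05 times that of the other nuclei (SD, n = 6). By mean over samples the sum was 1805 CPM in cluster 3, 1782 CPM in cluster 0 and 1819 CPM in cluster 2, so that this level was not particular to cluster 3. For Pola1, which encodes the catalytic subunit of DNA polymerase alpha, cluster 3 had 171 to 345 CPM and the other nuclei 166 to 322 CPM. The summed ratio was 1.09 ± 0.04 for nucleotide supply, 1.07 ± 0.02 for chromatin assembly at the fork and 0.99 ± 0.07 for G1/S regulators. Mean sums in clusters 3, 0 and 2 were 590, 574 and 565 CPM for nucleotide supply. For chromatin assembly they were 1406.5, 1400 and 1388 CPM. Slbp, whose protein binds the histone stem-loop, had a log2 ratio of 0.13 ± 0.15, and the 13 genes of histone mRNA factors summed to 1.01 ± 0.05 times the other nuclei. Replacement histones, which are made outside S phase too, summed to 1.14 ± 0.12, with H2afz at a log2 ratio of 0.11 ± 0.15. The ratio of replicative histones was thus larger than that of each of these lists in each sample.

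Genes of G2/M and mitosis act in chromosome segregation and cell division. Their sum was 3013, 4825 and 3997 CPM in QCM and 3653, 4903 and 4893 CPM in SCM, 1.30 ± 0.19 times the other nuclei (SD, n = 6), and cluster 3 ranked first in 5 of 6 samples and sixth in QCM 1. By mean over samples the sum was 4214 CPM in cluster 3 against 3831 CPM in cluster 0 and 3574 CPM in cluster 2. All 44 measured genes had a mean log2 ratio of at least 0.10, and 11 were higher in all samples, against 2.36% of all genes. The median was 0.37 and the highest 0.56. Examples are Cenpe, a kinetochore motor, at 0.40 ± 0.27 and Knl1, a kinetochore scaffold, at 0.37 ± 0.35, both lower than in the other nuclei in QCM 1.

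**Figure D3:**
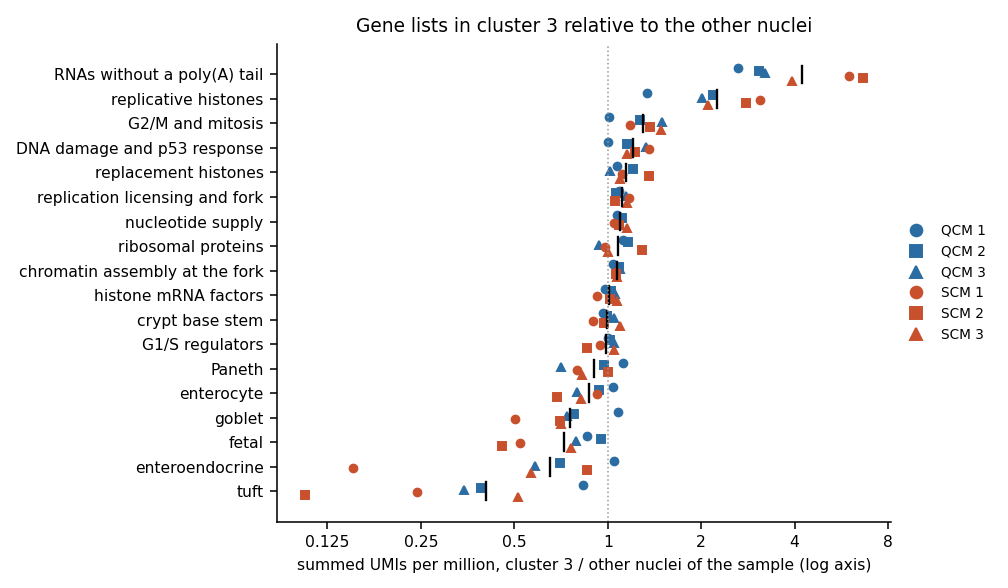
Summed level of each gene list in cluster 3 divided by that in the rest of the sample (log axis), with 1 point per sample and a black bar at the mean of 6 samples. RNAs without a poly(A) tail lie between 2.63 and 6.63 and replicative histones between 1.33 and 3.10, the replication lists have means of 1.07 to 1.11, G2/M has 1.30, and enteroendocrine and tuft lists have means of 0.65 and 0.41.

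Over all genes 9 were at least 2-fold lower in all samples (0.0728%) and 9.23% were lower by any amount. The 9 were Ptprn2, Ano7, Vwa5b2, Kcnb2, Dgki, Kcnma1, St18, Slc18a1 and Plcb1. Ptprn2, a protein of hormone granules, had 21.3, 25.3 and 34.3 CPM in QCM and 0, 31.2 and 23.7 CPM in SCM, against 60.8, 166, 127, 90.6, 128 and 138 CPM in the other nuclei. Kcnb2, a potassium channel gene, had 4.31 to 24.5 CPM against 37.2 to 104 CPM, a log2 ratio of -2.07 ± 0.51 (SD, n = 6). Rfx6, a transcription factor of endocrine cells, had a log2 ratio of -2.20 ± 1.08, and Pou2f3, which specifies tuft cells, -2.13 ± 0.96, without either being 2-fold lower in each sample. The Rfx6 and Pou2f3 counts in cluster 3 rested on 23 and 17 nuclei.

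Summed markers of mature lineages stood on average below those of all other nuclei, which include the clusters of these lineages. The summed ratio was 0.65 for the enteroendocrine list (0.15 to 1.04 by sample), 0.41 for tuft (0.11 to 0.83), 0.75 for goblet (0.50 to 1.08), 0.87 for enterocyte (0.69 to 1.04), 0.90 for Paneth (0.71 to 1.12) and 0.72 for genes of the fetal intestine (0.46 to 0.95). In QCM 1 the enteroendocrine, goblet, enterocyte and Paneth sums were all above those of its other nuclei. By mean over samples, cluster 3 was above clusters 0 and 2 for each of these lists but tuft, and below cluster 1 for each. Goblet genes had 836 CPM in cluster 3 against 640, 1200 and 591 CPM in clusters 0, 1 and 2. Fetal genes had 316 CPM against 215, 422 and 221 CPM, and tuft genes 8.80 CPM against 11.1, 13.8 and 10.6 CPM. The crypt base stem list had a ratio of 1.00 ± 0.07, with Lgr5, the stem cell receptor, at 171 to 755 CPM in cluster 3 and 186 to 814 CPM elsewhere. By mean over samples the sum of this list was 3987 CPM in cluster 3 against 4852, 3677.5 and 4815 CPM in clusters 0, 1 and 2. Stromal genes summed to 5.31 to 10.7 CPM and immune genes to 0 to 3.19 CPM in cluster 3, and no member of either list reached a mean of 5 CPM over samples. The stromal sum was 1.38 ± 0.42 times that of the other nuclei (SD, n = 6), which held 4.43 to 10.4 CPM.

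The share of cluster 3 among all nuclei did not separate the media. It was 6.62%, 5.31% and 5.79% in QCM 1 to 3 (mean 5.91 ± 0.664, SD, n = 3) and 4.88%, 6.05% and 6.97% in SCM 1 to 3 (mean 5.97 ± 1.05, SD, n = 3), and the ranges overlapped. The SCM 1 share rested on 21 of 430 nuclei and had a Wilson 95% interval of 3.22 to 7.35%. On the log2 scale SCM exceeded QCM by 0.03 ± 0.21 (SE), and the 95% interval of the fold was 0.720 to 1.44 (edgeR quasi-likelihood test, adjusted p = 0.982), and a two-sided exact permutation test gave p = 1, where 0.1 is the smallest that 3 against 3 can give. Median UMIs per cluster 3 nucleus were 7981, 2228 and 1774 in QCM and 6289, 2549 and 2106 in SCM (exact permutation p = 0.9). Genes detected per nucleus at 1000 UMIs averaged 742 ± 38.1 in QCM and 739 ± 26.8 in SCM (SD, n = 3 each; exact permutation p = 1).

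Within cluster 3 no gene passed the test between media. The edgeR quasi-likelihood test on counts summed per sample covered 10709 genes and called 0 at an adjusted p under 0.05 (0%). Before adjustment, 826 genes (7.71%) had a p under 0.05, 137 higher and 689 lower in SCM, and DESeq2 called 1 gene, Prap1, lower. The smallest edgeR adjusted p was 0.638. Without the filter on low counts, the edgeR test called 515 of 25085 genes. In bulk sums such as these, fewer transcripts of a gene per nucleus and fewer nuclei with the gene cannot be told apart.

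The genes with the smallest unadjusted p are given as values. Mgam2-ps, a pseudogene of a brush border glucosidase, had 7.53, 8.74 and 13.6 CPM in QCM and 60.4, 48.8 and 42.0 CPM in SCM, a log2 difference of 2.15 ± 0.33 (SE). Its media did not overlap, which held for 7.43% of all genes in that direction. Maml2, a Notch coactivator, had 5.31, 9.61 and 12.0 against 64.7, 45.8 and 34.5 CPM, and Ano1, a chloride channel gene, 3.99, 12.2 and 12.8 against 116, 58.5 and 32.9 CPM. Bicd1, a dynein adaptor, and Samd5 had log2 differences of 1.55 and 2.89. On the low side, Cldn15, a tight junction claudin, had 100, 97.0 and 112 CPM in QCM and 43.1, 61.4 and 63.6 CPM in SCM, a log2 difference of -0.98 ± 0.25, also without overlap, as for 4.59% of all genes in that direction. The differences were -1.58 for Smim24, -1.93 for Cst3, which encodes cystatin C, -1.20 for Cth, an enzyme of cysteine synthesis, and -1.36 for Manf, an endoplasmic reticulum stress factor. All 10 had the same adjusted p of 0.638 and their mean levels outside cluster 3 lay in the same direction.

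No histone gene of cluster 3 was called between media. The summed histone level given above was 1604 to 1788 CPM in QCM and 1936 to 2116 CPM in SCM, but SCM 1 lay below all QCM samples, at 1483 CPM, without its largest nucleus. With the TMM scaling of the test the media overlapped too, at 1646 to 1989 CPM in QCM and 1799 to 2042 CPM in SCM. Of the 44 genes tested, 31 had a fitted log2 difference above 0 and 3 of these an unadjusted p under 0.05, where 5242 and 137 of all 10709 genes did, with a median of 0.22 against -0.01 over all genes. The 4 marker genes had differences of 0.26 ± 0.46 for Hist1h2ac, 0.54 ± 0.44 for Hist1h2bh, 0.63 ± 0.33 for Hist1h2bj and 0.43 ± 0.34 for Hist1h2bm (SE; adjusted p from 0.649 to 0.879 by edgeR). Of these 4, Hist1h2bj had levels without overlap between media, as did 7.43% of all genes in that direction, but without its largest nucleus SCM 1 had 67.7 CPM and lay within the QCM range. Without QCM 1, the sample of lowest histone ratio, the value of Hist1h2ac turned to -0.15. The G2/M list had 32 of 44 above 0 with a median of 0.14, and the replication list 14 of 35 with -0.22.

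Larger differences, though not called, lay in lists for differentiated cells and ribosomes. All 78 ribosomal protein genes tested were lower in SCM, with a median of -1.28, and 45 had an unadjusted p under 0.05. Over all genes 5467 of 10709 were lower by any amount, 689 of them at an unadjusted p under 0.05. All 10 enterocyte genes were lower with a median of -1.67 (7 at unadjusted p), for example Fabp1, a fatty acid binding protein gene, at 1735, 181 and 825 CPM in QCM and 116, 174 and 598 CPM in SCM. Goblet genes had 5 of 6 lower and a median of -1.64, and Paneth genes had 4 of 5 lower, 3 of them at an unadjusted p under 0.05, and a median of -1.78. The ribosomal protein sums were 155803, 55932 and 95989 CPM in QCM and 40027, 32337 and 71874 CPM in SCM, which overlap. QCM 1 carried much of these differences: without it, 78 of 79 ribosomal protein genes were lower with a median of -0.66, and 7 of 9 enterocyte genes with -0.49.

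Genes that the study was built around were not called in cluster 3. Lgr5 had 171, 593 and 311 CPM in QCM and 660, 755 and 482 CPM in SCM, a log2 difference of 0.75 ± 0.37, and Olfm4, another crypt base gene, had -0.44 ± 0.38. Yap1, the Hippo pathway coactivator, had 0.11 ± 0.22 and Fzd7, a Wnt receptor gene, -0.30 ± 0.55 (SE; adjusted p from 0.638 to 0.895 by edgeR). Fzd7 rested on 3 to 19 UMIs per sample. Its mean level of 6.90 CPM in QCM and 7.95 CPM in SCM ran opposite to the sign of the fit. Ptk7, a Wnt coreceptor gene, was at 1.77 to 15.6 CPM and under the level for testing.

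**Figure D4:**
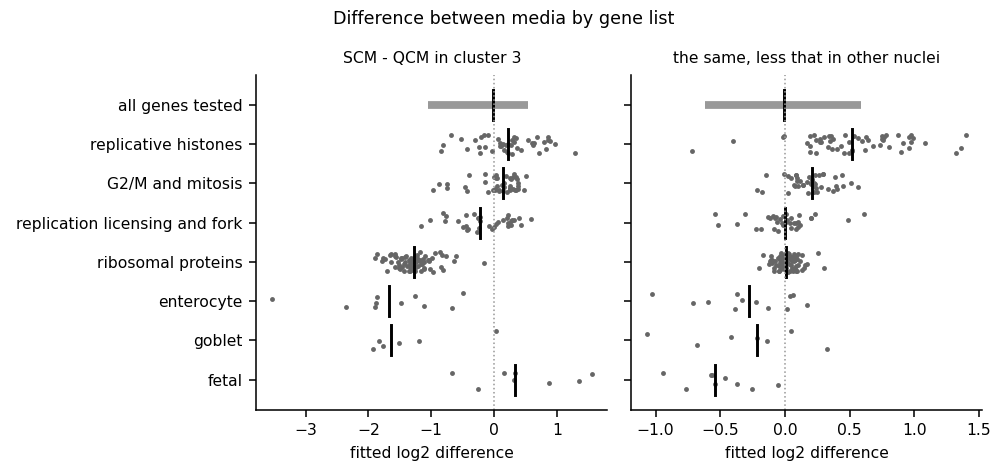
Fitted log2 difference between SCM and QCM in cluster 3 (left) and that difference less the one in the other nuclei (right), with 1 point per gene, a black bar at the median and, for all genes tested, a grey bar from the 5th to the 95th percentile. Ribosomal protein genes have medians of -1.28 on the left and 0.01 on the right, and replicative histones have 0.22 on the left and 0.52 on the right.

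The difference between media in cluster 3 was then compared with that in the other nuclei, with the sample as a block. The other nuclei were a different mix of clusters in each sample. Cluster 1 gave 1639 of the 3540 other nuclei in QCM 1 and 1086 of 7509 in QCM 2, and cluster 0 gave 305 and 3413. A change in cluster 3 and a change in this mix cannot be told apart in the interaction. This interaction passed the edgeR test for 3 of 14063 genes (0.0213%), all with a larger ratio of cluster 3 to other nuclei in SCM. An unadjusted p under 0.05 was reached by 4.34% of genes, and DESeq2 called 0 genes at an adjusted p under 0.05 and 181 at an unadjusted one.

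Rpph1, the RNA of ribonuclease P, had 1.70, 2.54 and 1.60 times the level of the other nuclei in cluster 3 of QCM 1 to 3 and 6.54, 5.17 and 2.72 times in SCM 1 to 3. These ratios did not overlap, the closest being 2.54 in QCM 2 and 2.72 in SCM 3. How many of all genes had ratios without overlap was not counted. The log2 difference was 1.28 ± 0.21 (SE; edgeR adjusted p = 0.00591). Rpph1 overlaps Ccnb1ip1 on its own strand, so reads of the pair could not be separated with certainty. The level itself did overlap between media, at 48.7, 21.0 and 97.4 CPM in QCM and 203, 85.8 and 38.2 CPM in SCM. For Rn7sk the ratios were 2.95, 3.92 and 3.38 in QCM and 6.13, 11.4 and 4.56 in SCM, also without overlap, with a log2 difference of 0.99 ± 0.18 (adjusted p = 0.0200). That call was lost without QCM 1 (adjusted p = 0.175) and without QCM 2 (adjusted p = 0.153). For Gm26870, a noncoding RNA, they were 0.615, 1.35 and 0.656 in QCM and 3.76, 1.38 and 1.06 in SCM, a log2 difference of 1.08 ± 0.21 (adjusted p = 0.0343). Here the QCM 2 and SCM 3 ratios overlapped, and the call was lost without the largest nucleus of SCM 1 (adjusted p = 0.0618), without QCM 1 (0.175) and without QCM 3 (0.0601).

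**Figure D5:**
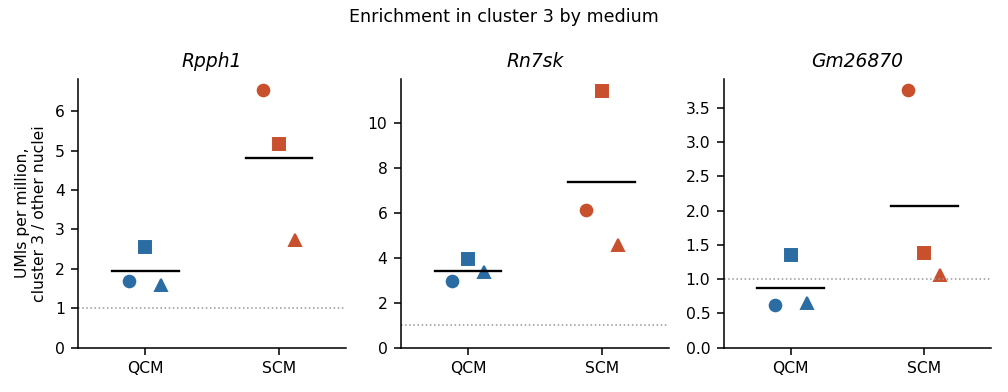
Level in cluster 3 divided by the level in the rest of the sample for the 3 genes whose interaction passed the test, with circles, squares and triangles for replicates 1, 2 and 3, a black bar at the mean of 3 samples per medium, and a dotted line at 1. Rpph1 and Rn7sk have every SCM ratio above every QCM ratio, and Gm26870 does not. The closest QCM and SCM ratios are 2.54 and 2.72 for Rpph1 and 3.92 and 4.56 for Rn7sk.

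None of the 55 histone genes tested passed in the interaction, but 51 had a value above 0, where 6790 of all 14063 genes did, and the median was 0.52 against -0.01 over all genes. Their summed ratio of cluster 3 to other nuclei was lowest in QCM 1. Without QCM 1, 45 of 57 were above 0 with a median of 0.31, and with replicates 2 and 3 alone 44 of 61 with 0.25. The G2/M list had 40 of 44 above 0 with a median of 0.21, and 30 of 44 with 0.07 without QCM 1. Genes of the fetal list had 0 of 9 above 0 with a median of -0.54, but 4 of 9 with -0.0040 when the 6% of nuclei with the most UMIs were left out. Within cluster 3 itself, 6 of the 8 fetal genes tested were higher in SCM, where 5242 of all 10709 genes were. Their median was 0.33, and none was called. Ribosomal protein genes, which were lower in SCM in cluster 3, had an interaction median of 0.01, with 43 of 80 above 0. The lineage lists that were lower in SCM in cluster 3 had smaller interaction medians. These were -0.28 for enterocyte genes (8 of 12 below 0), -0.21 for goblet genes (5 of 7) and -0.40 for Paneth genes (6 of 7), and none of these genes was called.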

How the data were processed

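Single-nucleus libraries of 6 samples (3 QCM, 3 SCM) were analysed. The deposited UMI counts per gene and nucleus were made by the authors with Cell Ranger (version 2.1.1 in the submitters' processing notes) on mm10. Per the methods, nuclei more than 3 mean absolute deviations low in depth or genes, or high in mitochondrial share, were removed per sample. The methods name no upper limit on depth. Leiden clusters were found on Harmony-integrated components. The authors' annotation also deposited a mitochondrial fraction of counts and projection scores (2-dimensional coordinates) per nucleus, of which the scores entered no result. Cluster numbers came from the deposited annotation, and no doublet caller was run. Counts were summed per sample over cluster 3 and over the other nuclei and tested in R 4.3.3 with the edgeR 4.0.16 quasi-likelihood test (TMM, filterByExpr, Benjamini-Hochberg at 0.05). Interactions had the sample as a block. DESeq2 1.42.0 and limma 3.58.1 served as alternatives, with Python 3.11.15 for tables. Descriptions used CPM with 1 CPM added. Scripts were tested on simulated data. Members and lists were chosen with earlier results of these data known. Named were the 4 markers, the 12 highest and 8 lowest genes by ratio, the 5 genes per direction leading each test, 3 members per list, the replicative histones, and the genes 2-fold changed in all samples. Depth was 231871 to 2258172 cluster 3 UMIs per sample, and the intervals of shares of nuclei cover counting error only, while that of the SCM to QCM fold covers the spread between samples. Mitochondrial genes were not analysed here beyond their deposited share of counts.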

Additional observations from a re-analysis of the deposited data

Results flagged for a closer look

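The ratio of cluster 3 to the other nuclei was larger in SCM than in QCM for 3 genes, by the edgeR interaction test with the sample as a block. The log2 values were 1.28 for Rpph1, 0.99 for Rn7sk and 1.08 for Gm26870. The Rn7sk call was lost without QCM 1 and without QCM 2, and that of Gm26870 without QCM 1, without QCM 3 and without the largest nucleus of SCM 1. Rpph1 and Rn7sk lay higher in cluster 3 than elsewhere in 6 of 6 samples. The level of Gm26870 in cluster 3 overlapped between media, at 86.4, 47.2 and 710 CPM in QCM 1 to 3 and 259, 143 and 64.6 CPM in SCM 1 to 3. Rpph1 rested on 24 to 122 UMIs per sample in cluster 3, Rn7sk on 130 to 3914 and Gm26870 on 54 to 889. In SCM 1, 1 nucleus held 824 of the 3337 Rn7sk UMIs of cluster 3. Across samples the level of Rn7sk in the other nuclei moved from 29.0 to 2348 CPM, and its part in the difference was not tested. The mix of clusters in the other nuclei also differed between samples, and its part was not tested either.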

How the results depend on the processing

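The count of genes between media in cluster 3 was 0 with edgeR under RLE factors, library size alone, each sample left out (0 to 0), replicates 2 and 3 alone and the replicate block, but 1 with DESeq2 and 515 without a filter on low counts, where genes with few counts enter. Of the 18 genes named for this test that had passed the filter, 9 were also called without it. Library size alone moved the median of all genes to 0.13. The interaction count of 3 became 0 with DESeq2, 10 without the filter, 11 without the 6% of nuclei with the most UMIs, 5 with replicates 2 and 3 alone, and 1 to 23 when 1 sample was left out. It was 1 without QCM 1, 2 without QCM 2, 14 without QCM 3, 15 without SCM 1, 7 without SCM 2 and 23 without SCM 3, and Rpph1 was among the calls in all of these. Rn7sk was not called without QCM 1 or QCM 2, and Gm26870 not without QCM 1 or QCM 3. The cause of these changes was not tested.

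For genes at least 2-fold higher in cluster 3, 17 became 9 with 5 CPM added, 11 with nuclei thinned and 17 to 33 with a sample left out. The 33 came without QCM 1. The 9 lower genes became 14 with 0.5 CPM added, 4 with 5 CPM added and 9 to 22 with a sample left out, the 22 again without QCM 1. The share of cluster 3 nuclei with a histone UMI was 59.4% at 500 UMIs (other nuclei 38.5%) and 96.6% without thinning (83.4%). The log2 share ratio ran from -0.10 to 0.14 with a sample left out. The SCM less QCM difference of median UMIs, -346 in the reported setting, ran from -1667 to 1647, was 1008 for means, and stayed -346 with the replicate block. Genes per nucleus differed by -19.3 to 17.7. With a sample left out, the media value ran from -0.15 to 0.62 for Hist1h2ac, from -0.63 to 0.069 for Fzd7 and from -0.0068 to 0.21 for Yap1. Signs turned without QCM 1 for all 3 and without SCM 2 for Fzd7. With replicates 2 and 3 alone Hist1h2ac was at -0.089 and Yap1 at -0.0063. Same-numbered samples had correlations of 0.03, 0.27 and -0.06, and differently numbered ones -0.21 to 0.16. These few correlations cannot show whether same-numbered samples belong together. The median mitochondrial share of the other nuclei was 1.01%, 1.82% and 3.72% in QCM 1 to 3. In SCM 1 to 3 it was 0.804%, 2.19% and 3.55%, so each sample lay nearest to the same-numbered one of the other medium. Median UMIs of cluster 3 nuclei fell from sample 1 to sample 3 in both media. The main tests between media did not pair samples by number, and whether such pairs share an origin was not tested. The replicate block gave a log2 share ratio of 0.03. Leaving out the largest SCM 1 nucleus, TMM scaling of the histone sum and replicates 2 and 3 alone were alternatives chosen after seeing the data. SCM 1 gave 21 cluster 3 nuclei, which limits the precision of its values.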
